A study of Mus musculus with 23 samples.

Results

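The genes described here are 9 genes of dopamine synthesis, storage, reuptake, breakdown and reception: Th, Gch1, Ddc, Slc18a2, Slc6a3, Maoa, Maob, Drd2 and Drd5. They were chosen by name from the 23400 genes of the deposited table, and 9 of 9 were found in it. Each was followed across all 23 cells, with the question of which cells carried Ddc, Slc18a2 and Gch1 without Th and Slc6a3. The samples were 23 single GFP-positive neurons from the arcuate nucleus of vGLUT2-IRES-Cre::loxSTOPlox-L10-GFP mice. In these animals Cre expressed from Slc17a6, which encodes the glutamate transporter VGLUT2 of synaptic vesicles, switches on GFP fused to the ribosomal protein L10, so GFP also marks cells that expressed the driver only earlier in life. The donors were 2 young adult males of mixed background, and cells are not assigned to either animal in the labels. All cells therefore formed 1 group with no treatment and no replicates, and no test was made between cells. Sample titles carry the prefix JCb5.2 (15 cells, numbered 1 to 15 here) or JCb6 (8 cells, numbered 16 to 23), and the labels do not explain the prefixes.

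Dopamine is made from tyrosine in successive enzymatic steps. Tyrosine hydroxylase (Th) makes L-DOPA with the cofactor tetrahydrobiopterin, whose synthesis starts with GTP cyclohydrolase (Gch1), and aromatic amino acid decarboxylase (Ddc) turns L-DOPA into dopamine. The vesicular monoamine transporter VMAT2 (Slc18a2) loads dopamine into vesicles, the dopamine transporter (Slc6a3) takes it back up after release, and the monoamine oxidases (Maoa and Maob) degrade it. The arcuate nucleus holds the tuberoinfundibular dopamine neurons, whose dopamine restrains prolactin secretion from the pituitary, and it also holds neurons with single enzymes of the pathway. Ddc, Slc18a2, Gch1 and the monoamine oxidases also serve serotonin, noradrenaline or histamine and are not dopamine genes alone.

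The level of a gene is given in FPKM, its sequenced fragments divided by its length in kilobases and scaled to 1000000 mapped fragments, and cells at 1 FPKM or more were counted as having the gene. Some cell passed 1 FPKM for 7 of the 9 genes, and for 63.7% of all genes. In 12 or more cells, 3 of the 9 did so (Slc18a2, Maoa and Ddc), against 27.8% of all genes. The median number of cells per gene was 11 for the 9 genes and 2 for all genes. Among genes at 1 FPKM in any cell it was 11 for the 7 members and 9 for all such genes. By median level over the 23 cells the order was Slc18a2 (4.00 FPKM), Maoa (3.11), Ddc (1.63), Maob (0.520) and Gch1 (0.478). The ranges of these 5 genes overlapped, since each had cells under 0.1 FPKM and cells above 10 FPKM. Drd2 had a median of 0.0334 FPKM, and Th, Slc6a3 and Drd5 had a median of 0.

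FPKM sums per cell were lowest in cell 14 (379513) and highest in cell 17 (687511), with a median of 511306. The number of genes at 1 FPKM was lowest in cell 17 (4054), highest in cell 13 (8042) and had a median of 7090. Relative depth, read from the steps between low values, differed 4.21-fold between the deepest cell (20) and the shallowest (14). Of 10 markers of neurons in general, 6 were at 1 FPKM in every cell. Cell 12 had the most of the glial genes Gfap and Vim: Gfap of astrocytes was at 165 FPKM there and Vim of tanycytes at 258 FPKM, and their part in the results of that cell was not tested. Of the 7 astrocyte markers 3 reached 1 FPKM in some cell, with a summed level from 0.122 to 166 FPKM, and of the 7 tanycyte and ependymal markers 5 did, with a summed level from 0.317 to 259 FPKM. Of 7 oligodendrocyte markers 5 did, with a summed level from 0.0341 to 54.7 FPKM. All 5 red blood cell markers did, with a summed level from 3.45 to 2398 FPKM, highest in cell 19. Of 6 endothelial markers 2 did, with a summed level from 0 to 18.4 FPKM, highest in cell 21. Of 7 microglia markers 3 did, with a summed level from 0.0729 to 8.86 FPKM. The part of these transcripts in the results was not tested. The astrocyte markers that reached 1 FPKM were Gfap in 3 cells, Slc1a2 in 4 (cells 3, 4, 13 and 14, at most 8.30 FPKM) and S100b in 2 (cells 6 and 20, 10.3 and 13.0 FPKM). Slc1a3, Gja1, Aqp4 and Aldh1l1 of the same list stayed under 1 FPKM in all cells, and Rax of tanycytes was listed at 0 in all.

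**Figure D1:**
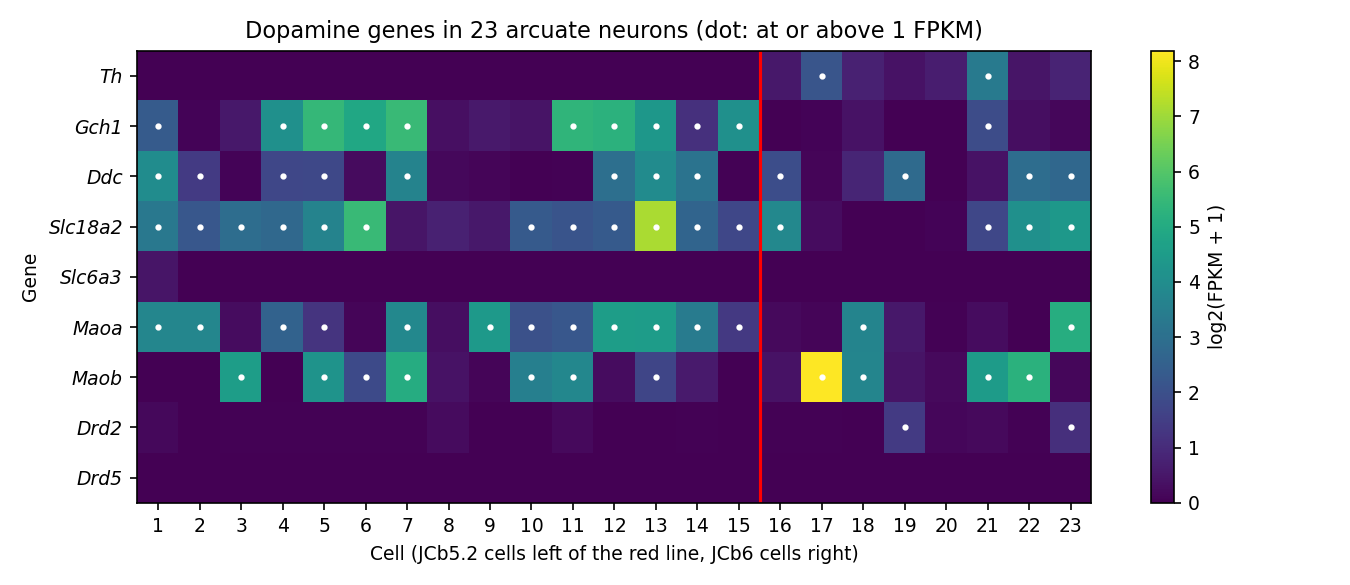
Level of each of the 9 genes (down the page) in each of the 23 cells (across), as log2(FPKM + 1), with a white dot where the gene was at 1 FPKM or more. The Gch1 dots fall in 10 of the 15 JCb5.2 cells and 1 of the 8 JCb6 cells, the Th dots in cells 17 and 21, and Slc6a3 and Drd5 have none.

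Th, the rate-limiting enzyme of dopamine synthesis (chromosome 7, 142892776 to 142899966, minus strand, mm10), was listed at 0 in all 15 JCb5.2 cells. In the 8 JCb6 cells it was at 0.452, 3.42, 0.688, 0.324, 0.585, 9.08, 0.380 and 0.773 FPKM, in the order of cells 16 to 23. Only cells 17 and 21 reached 1 FPKM, which is 8.70% of cells (exact 95% interval 1.07 to 28.0%), and 0 of the other 21 cells did. The cells of both prefixes did not overlap in Th. Every JCb6 cell was above every JCb5.2 cell for 16 genes of the table, 0.0684% of all genes, and Th was the single member among them. The others included the hormone genes Avp and Oxt, for vasopressin and oxytocin, which are made by magnocellular neurons outside the arcuate nucleus.

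Avp and Oxt were high in all 8 JCb6 cells, and the cells with the most Th had the most of both. Avp ran from 571 to 5186 FPKM and Oxt from 322 to 3014 FPKM in JCb6 cells, against at most 2.01 FPKM of Avp and 30.8 FPKM of Oxt in JCb5.2 cells. Cell 21 had the highest Th (9.08 FPKM), Avp (5186) and Oxt (3014), and cell 17 was next in all (Th 3.42, Avp 2550, Oxt 1432 FPKM). Among the other 6 cells the order by Th was not the order by Avp or Oxt. Over the 8 cells Th spanned 28.0-fold, while Th per 1000 FPKM of Avp spanned 3.41-fold (0.514 to 1.75) and Th per 1000 FPKM of Oxt 3.25-fold (0.926 to 3.01). The narrower span of the ratios rests on cells 17 and 21. In the other 6 cells Th ran from 0.324 to 0.773 FPKM. There Th per 1000 FPKM ran from 0.514 to 1.16 for Avp and from 0.926 to 2.21 for Oxt. Whether the Th values of the 8 JCb6 cells share a source with those of Avp and Oxt was not tested. With each cell rescaled to a sum of 1000000, 5 cells reached 1 for Th.

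**Figure D2:**
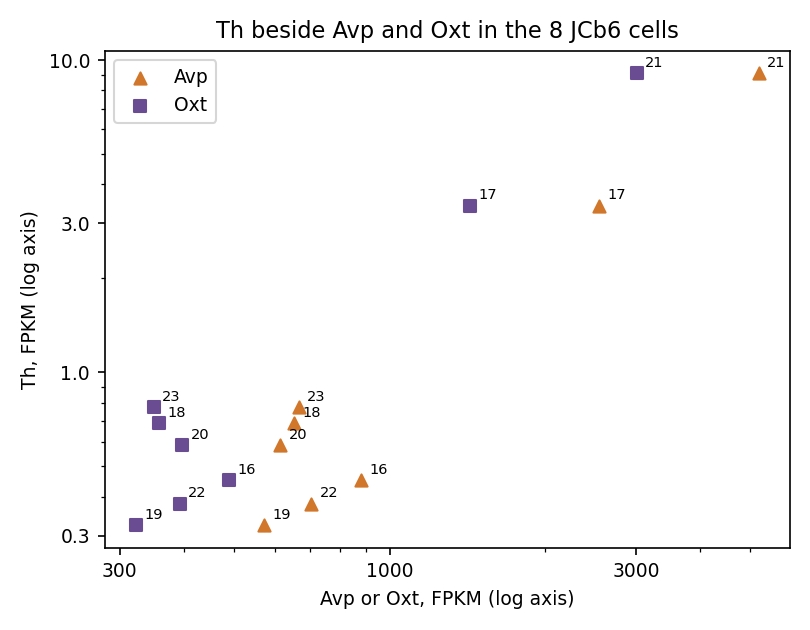
Th level (vertical, FPKM, log axis) against Avp (triangles) and Oxt (squares) level (horizontal, FPKM, log axis) in the 8 JCb6 cells, with cell numbers. Cells 21 and 17 are highest in all 3 genes, and the other 6 cells lie between 0.324 and 0.773 FPKM of Th.

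The tryptophan hydroxylases, which also use tetrahydrobiopterin, were scarce. Tph2, the tryptophan hydroxylase of serotonin neurons, was at 1.01, 1.71 and 3.87 FPKM in cells 5, 21 and 23. Tph1, the tryptophan hydroxylase of peripheral tissues and the pineal gland, was found in cell 6 (3.34 FPKM) and was under 1 FPKM elsewhere. No cell had Th and Ddc together at 1 FPKM (0 of 23, exact 95% interval 0 to 14.8%): Ddc measured 0.0773 and 0.319 FPKM in cells 17 and 21. This depended on the scale. With each cell rescaled to a sum of 1000000, Th was counted in 5 cells and Ddc in 13. Cells 18 and 23 then had both, from unscaled values of 0.688 and 0.773 FPKM of Th and 0.802 and 5.60 FPKM of Ddc.

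Gch1 (chromosome 14, 47153895 to 47189402, minus strand) reached 1 FPKM in 11 of 23 cells (47.8%, exact 95% interval 26.8 to 69.4%). In the JCb5.2 cells 1 to 15 it was at 4.07, 0.0584, 0.454, 16.2, 42.6, 28.6, 45.8, 0.265, 0.478, 0.359, 39.7, 37.2, 18.996, 1.20 and 16.3 FPKM. In the JCb6 cells 16 to 23 it was at 0, 0.0610, 0.325, 0, 0, 2.70, 0.231 and 0.0938 FPKM. Gch1 was thus above 16 FPKM in 8 cells, between 1.20 and 4.07 FPKM in 3 (14, 21 and 1) and at most 0.478 FPKM in the other 12. The 11 counted cells had a median of 18.996 FPKM. Of the 11 cells, 10 were JCb5.2 cells (10 of 15) and 1 was the JCb6 cell 21 (1 of 8). The medians were 16.2 FPKM in JCb5.2 cells and 0.0774 FPKM in JCb6 cells, and the ranges overlapped. The processed pseudogenes Gm49134 and Gm18811 lie inside the Gch1 locus. Whether they overlap its exons or affect its reads was not tested.

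The remaining cofactor genes were broader than Gch1. For all 8 genes of tetrahydrobiopterin synthesis and recycling some cell was at 1 FPKM, and 5 of the 8 passed it in 12 or more cells. Pts, the 6-pyruvoyltetrahydropterin synthase that follows Gch1, was found in 21 cells (median 56.1 FPKM), and Spr, the sepiapterin reductase of the last step, in 17 (median 28.1 FPKM). The recycling enzymes Qdpr and Pcbd1 were found in 21 and 23 cells, with medians of 111 and 231 FPKM. Of the synthesis genes Gch1 was thus found in the fewest cells: Pts and Spr were together in 17 cells, and all of Gch1, Pts and Spr in 10. Gchfr, the protein that mediates feedback inhibition of GTP cyclohydrolase, reached 1 FPKM in 6 cells, and 5 of these (5, 12, 14, 15 and 21) also had Gch1.

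Ddc (chromosome 11, 11814101 to 11898144, minus strand) reached 1 FPKM in 12 of 23 cells (52.2%, exact 95% interval 30.6 to 73.2%). In cells 1 to 15 it was at 14.7, 1.63, 0.0638, 2.38, 2.39, 0.191, 11.6, 0.130, 0.0882, 0, 0.0321, 6.89, 14.4, 7.63 and 0.0244 FPKM. In cells 16 to 23 it was at 2.80, 0.0773, 0.802, 6.13, 0.0150, 0.319, 6.54 and 5.60 FPKM. Cells 1, 13 and 7 were highest, and the shares were close in cells of both prefixes, at 8 of 15 JCb5.2 cells and 4 of 8 JCb6 cells. The nearest cells on either side of 1 FPKM were cell 2 (1.63 FPKM) and cell 18 (0.802 FPKM). The antisense gene 1700042O10Rik overlaps Ddc, and as the strand used in counting is not stated, reads of the overlap cannot be told apart. The antisense gene reached 1 FPKM in 1 cell.

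Enzymes that act beside or after Ddc were found in few cells. Hdc, the histidine decarboxylase that makes histamine, was found in cell 5 alone (6.24 FPKM) and was under 1 FPKM elsewhere. Dbh, which turns dopamine into noradrenaline, was at 12.2, 20.5 and 2.89 FPKM in cells 11, 21 and 23. Pnmt, which makes adrenaline, was listed at 0 in all cells. Cell 21 thus held transcripts of Th, Gch1, Slc18a2, Tph2 and Dbh, with Ddc at 0.319 FPKM.

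Slc18a2 (chromosome 19, 59260878 to 59296012, plus strand) reached 1 FPKM in 16 of 23 cells (69.6%, exact 95% interval 47.1 to 86.8%), the most of the 9 genes at that threshold. At 10 FPKM it was found in 6 cells, against 9 for Maob, 8 for Gch1 and 8 for Maoa. In cells 1 to 15 it was at 8.77, 3.64, 6.58, 5.86, 11.6, 45.4, 0.383, 0.695, 0.431, 4.00, 3.39, 4.03, 142, 5.30 and 2.36 FPKM. In cells 16 to 23 it was at 13.1, 0.200, 0, 0, 0.0466, 2.34, 16.4 and 19.8 FPKM. Cell 13 stood far above the rest, with cell 6 next. Of the JCb5.2 cells 12 of 15 were counted, with none listed at 0, and of the JCb6 cells 4 of 8. The antisense gene Gm29261 overlaps the start of Slc18a2, and reads of the overlap cannot be told apart.

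No other amine carrier of vesicles reached 1 FPKM, while 2 carriers of the cell membrane did. Slc18a1, the vesicular transporter of chromaffin cells, reached at most 0.518 FPKM, and Slc18a3, the vesicular acetylcholine transporter, was listed at 0 in all cells. Slc6a3 (chromosome 13, 73536747 to 73578672, plus strand) had 0.378 FPKM in cell 1 and was listed at 0 in the other 22, so 0 of 23 cells were counted (exact 95% interval 0 to 14.8%). The transporters for noradrenaline (Slc6a2) and serotonin (Slc6a4) reached at most 0.0260 and 0.117 FPKM. By contrast the low-affinity plasma membrane monoamine transporter Slc29a4 was at 1 FPKM in 19 cells (median 9.43 FPKM), and 10 of the 12 Ddc cells had it. Slc22a3, an organic cation transporter that also carries monoamines, reached 1 FPKM in 6 cells, highest in cell 18 at 49.9 FPKM.

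The stretch around the transcription start is shown for the 4 genes of synthesis and storage whose presence in the same cells is compared here. Each runs from 200 bases before to 10 bases after a start site in RefSeq (GRCm38.p6), on the strand of the gene; 8 of the 9 genes were matched in that table. Ddc has a pair of start sites there, of which the more downstream is printed, since the window of the other holds neither motif searched. Capitals mark the cAMP response element TGACGTCA or the CCAAT box, both searched on both strands.
Th, chr7:142899986-142900195, minus strand: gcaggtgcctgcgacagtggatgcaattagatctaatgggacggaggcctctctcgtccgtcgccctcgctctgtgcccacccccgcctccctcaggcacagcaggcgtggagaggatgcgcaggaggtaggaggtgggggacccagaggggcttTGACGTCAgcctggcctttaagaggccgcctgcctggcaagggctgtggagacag
Slc18a2, chr19:59260678-59260887, plus strand: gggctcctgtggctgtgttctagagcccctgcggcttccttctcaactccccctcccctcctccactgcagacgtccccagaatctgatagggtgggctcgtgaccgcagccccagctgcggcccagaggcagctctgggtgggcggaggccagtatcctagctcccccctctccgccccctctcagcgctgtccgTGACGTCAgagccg
Gch1, chr14:47189404-47189613, minus strand: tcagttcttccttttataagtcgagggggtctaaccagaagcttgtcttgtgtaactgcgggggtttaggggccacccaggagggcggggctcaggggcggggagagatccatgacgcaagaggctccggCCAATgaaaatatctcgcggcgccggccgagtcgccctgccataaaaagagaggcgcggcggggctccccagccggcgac
Ddc, chr11:11890399-11890608, minus strand: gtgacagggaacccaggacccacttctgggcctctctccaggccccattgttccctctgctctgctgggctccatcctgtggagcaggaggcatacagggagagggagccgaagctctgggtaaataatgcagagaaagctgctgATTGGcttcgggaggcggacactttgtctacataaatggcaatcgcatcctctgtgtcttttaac
The full TGACGTCA element is in the Th window, starting 45 bases before the start site, and in that of Slc18a2, starting 4 bases before it. In the same window it is found in 524 of 32851 promoters of the table (1.60%). CCAAT is in the Gch1 window, 70 bases before the start site, and on the opposite strand, as ATTGG, in that of Ddc, 55 bases before it. CCAAT is common, on either strand, with 9924 of 32851 promoters (30.2%). Th and Slc18a2 thus share an element in these windows. Th was listed at 0 in 12 of the 16 cells with Slc18a2. These 12 were JCb5.2 cells, and Th was listed at 0 in all 15 JCb5.2 cells, with or without Slc18a2. The match is of letters only and says nothing of binding.

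Ddc, Slc18a2 and Gch1 were all at 1 FPKM, with Th and Slc6a3 below it, in 6 of 23 cells (26.1%, exact 95% interval 10.2 to 48.4%): cells 1, 4, 5, 12, 13 and 14. All 6 were JCb5.2 cells (6 of 15), and 0 of 8 JCb6 cells had the set. At 1 FPKM the condition on Th and Slc6a3 removed no cell. Th was listed at 0 in all 15 JCb5.2 cells, and Slc6a3 was below 1 FPKM in all 23 cells. Low Th and Slc6a3 thus do not set these 6 cells apart from the other JCb5.2 cells. The level of the set varied widely among them. Cell 13 was the fullest, with 14.4 FPKM of Ddc, 142 FPKM of Slc18a2 and 18.996 FPKM of Gch1, and it was the only cell with all 3 genes at 5 FPKM or more. Cell 14 was the weakest in Gch1 (1.20 FPKM, beside 7.63 FPKM of Ddc and 5.30 FPKM of Slc18a2), and cells 4 and 5 were weakest in Ddc (2.38 and 2.39 FPKM). Without cell 12, which had the most Gfap and Vim, and cell 14, the shallowest, 4 of 21 cells (19.05%) had the set. Glial transcripts were not limited to cell 12: Vim was at 74.9 and 68.4 FPKM in cells 4 and 13, Slc1a2 at 8.30 and 3.89 FPKM in the same cells, Mbp at 39.1 FPKM in cell 1 and Mag at 4.53 FPKM in cell 5. Their part in the result was not tested.

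All 6 cells of the full set also had Maoa and the driver gene Slc17a6 at 1 FPKM. Slc17a6 was at 78.7, 22.9, 30.8, 10.7, 22.7 and 32.1 FPKM in cells 1, 4, 5, 12, 13 and 14, against a median of 32.1 FPKM over all 23 cells. Slc17a6 was at 1 FPKM in 22 of all 23 cells, so its presence does not set these 6 apart. Maoa was at 1 FPKM in 14 of all 23 cells and in 12 of the 15 JCb5.2 cells, so it was not limited to these 6 either. In 5 of the 6 (4, 5, 12, 13 and 14) the further cofactor genes Pts and Spr were also at 1 FPKM; cell 1 had 0.480 FPKM of Spr. Of the GABA-synthesising enzymes, Gad1 was at 8.46, 97.2, 56.7, 125, 0.862 and 46.7 FPKM in cells 1, 4, 5, 12, 13 and 14. Gad2 was at 1 FPKM in all of them but cell 1 (0.543 FPKM), so each of the 6 cells had at least 1 of both enzymes. Over all 23 cells Gad1 was at 1 FPKM in 15 and Gad2 in 16, and only cells 2, 9, 20 and 23 had neither. Having a Gad gene thus does not set the 6 cells apart. Slc32a1, the vesicular GABA transporter, reached 1 FPKM in cell 5 alone of these (2.81 FPKM).

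Combinations of fewer genes were more frequent. Ddc and Slc18a2 were together in 10 cells (43.5%, exact 95% interval 23.2 to 65.5%), of which 7 were JCb5.2 cells and 3 JCb6 cells. The 4 cells of these without Gch1 were cell 2 and the JCb6 cells 16, 22 and 23. Slc18a2 was found without Ddc in 6 cells (3, 6, 10, 11, 15 and 21), and Ddc without Slc18a2 in 2 (7 and 19). At least 1 of Ddc, Slc18a2 and Gch1 was at 1 FPKM in 18 cells (78.3%), and none was in cells 8, 9, 17, 18 and 20. Counted over all 9 genes, 2 cells (8 and 20) had none at 1 FPKM, and cells 5 and 13 had the most, with 5 each.

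The 3 genes did not follow each other closely over the cells. The Spearman correlation over 23 cells was 0.38 between Ddc and Slc18a2, 0.25 between Slc18a2 and Gch1 and 0.19 between Ddc and Gch1. In the 15 JCb5.2 cells it was 0.38, 0.15 and 0.34 for the same pairs. All cells came from the same 2 mice, so the values only describe this set of cells. The correlation with relative depth was -0.17 for Ddc, -0.09 for Slc18a2 and -0.24 for Gch1, and that with the number of genes at 1 FPKM was 0.29, 0.43 and 0.57. Gch1 was thus higher in cells with more genes detected, and the part of detection in its pattern was not tested.

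**Figure D3:**
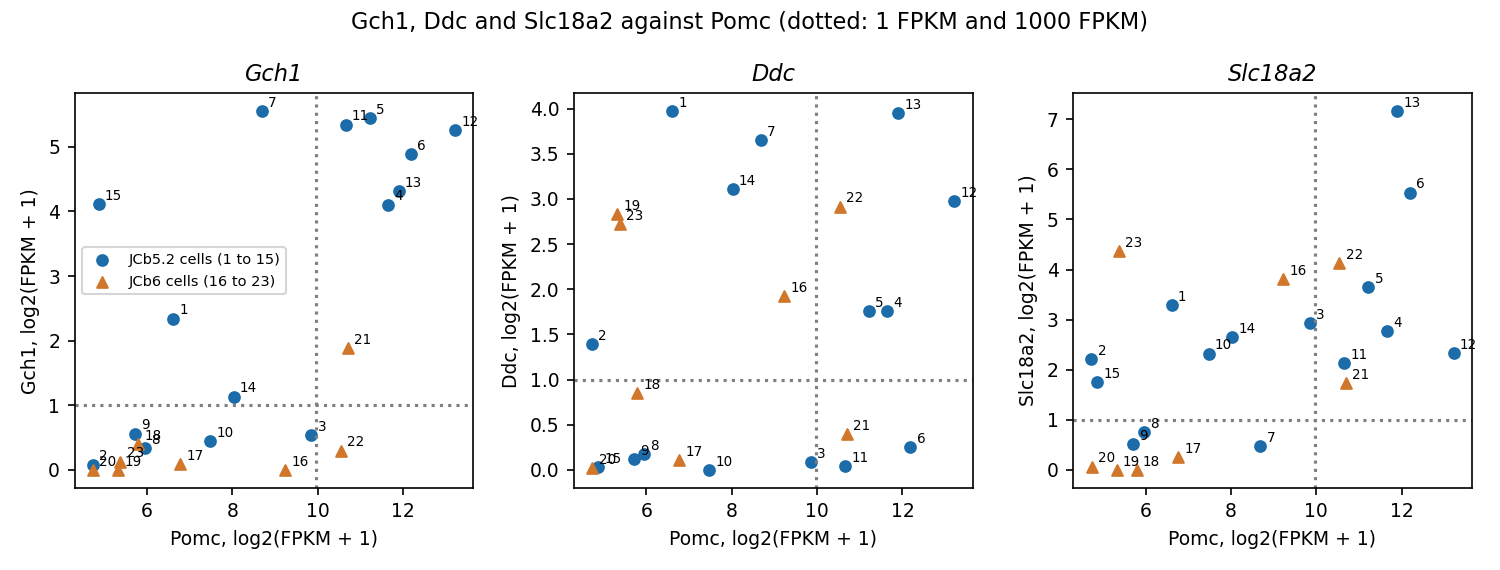
Gch1, Ddc and Slc18a2 (vertical, one panel each) against Pomc (horizontal), all as log2(FPKM + 1), per cell with its number; circles are JCb5.2 cells, triangles JCb6 cells, and dotted lines mark 1 FPKM and 1000 FPKM. All 8 cells right of 1000 FPKM of Pomc lie above the Slc18a2 line, 7 lie above the Gch1 line and 5 above the Ddc line.

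Slc18a2 and Gch1 were found most often in the cells with the most Pomc, which encodes pro-opiomelanocortin. Pomc was above 1000 FPKM in 8 cells (4, 5, 6, 11, 12, 13, 21 and 22) (lowest in cell 22 at 1488 FPKM, highest in cell 12 at 9534 FPKM), a bound chosen with the values known. Slc18a2 was at 1 FPKM in 8 of these 8 and in 8 of the other 15 cells. Gch1 was at 1 FPKM in 7 of the 8 and in 4 of the other 15, and Ddc in 5 of the 8 and in 7 of the other 15. The 8 Pomc-rich cells were 8 of the 16 Slc18a2 cells, 7 of the 11 Gch1 cells and 5 of the 12 Ddc cells. Cells 4, 5, 12 and 13 of the full set were Pomc-rich, while cells 1 and 14 had 96.7 and 259 FPKM of Pomc. The Pomc-rich cells also had more genes detected. All of them but cell 12 (6434) were above the median of 7090 genes at 1 FPKM. Of the other 15 cells only cells 1, 14, 15 and 18 were above it. The part of detection in the pattern with Pomc was not tested.

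The Spearman correlation with Pomc was 0.64 for Gch1, 0.55 for Slc18a2 and 0.28 for Ddc over 23 cells, and 0.63, 0.60 and 0.32 over the 15 JCb5.2 cells. The values for Gch1 and Slc18a2 were thus alike with and without the JCb6 cells. Slc18a2 also went with Cartpt, the precursor of the CART peptide that many Pomc neurons make (correlation 0.45 over 23 cells, 0.64 over JCb5.2 cells), and with Gad2, a GABA-synthesising enzyme (0.50 and 0.57). For Gch1 and Cartpt it was 0.45 over all cells and 0.05 over JCb5.2 cells. Gch1 went with the peptide genes Npy (0.63) and Sst (0.50) over all cells but not within the JCb5.2 cells (0.05 and -0.15); both were under 1 FPKM in all JCb6 cells.

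The cells with the most Kiss1, the kisspeptin gene of reproductive control, had few of these transcripts. Kiss1 was above 500 FPKM, again a bound chosen with the values known, in cells 8, 17, 19, 20 and 23. Gch1 reached 1 FPKM in 0 of these 5 and in 11 of the other 18 cells. Slc18a2 did so in 1 of the 5 (cell 23, 19.8 FPKM) and 15 of the 18, and Ddc in 2 of the 5 (cells 19 and 23, 6.13 and 5.60 FPKM) and 10 of the 18. Because 4 of the 5 Kiss1-rich cells carry the prefix JCb6, Kiss1 and the prefix largely cannot be told apart. Detection was also lower there: cells 8, 17, 19, 20 and 23 had 6386, 4054, 6004, 6331 and 6708 genes at 1 FPKM. The median over all 23 cells was 7090, and the part of detection in this pattern was not tested. Gch1 and Kiss1 had a Spearman correlation of -0.69 over 23 cells and -0.26 over JCb5.2 cells.

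Maoa (chromosome X, 16619698 to 16687812, plus strand) and Maob (chromosome X, 16709281 to 16817366, minus strand) encode the enzymes that oxidise monoamines at the mitochondrial outer membrane. Maoa reached 1 FPKM in 14 of 23 cells (60.9%, exact 95% interval 38.5 to 80.3%), in 12 of 15 JCb5.2 cells and 2 of 8 JCb6 cells. In cells 1 to 15 it was at 12.4, 12.5, 0.196, 4.94, 1.35, 0.0880, 13.2, 0.228, 19.9, 3.11, 3.64, 22.5, 22.2, 9.67 and 1.55 FPKM. In cells 16 to 23 it was at 0.148, 0.0790, 12.1, 0.445, 0.0230, 0.210, 0 and 33.0 FPKM. The JCb6 cells thus held both the highest value, in cell 23, and 6 values under 1 FPKM.

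Maob reached 1 FPKM in 11 of 23 cells (47.8%, exact 95% interval 26.8 to 69.4%), in 7 of 15 JCb5.2 cells and 4 of 8 JCb6 cells. In cells 1 to 15 it was at 0, 0, 22.8, 0, 17.5, 2.58, 32.7, 0.307, 0.0692, 10.5, 12.9, 0.204, 2.30, 0.520 and 0 FPKM. In cells 16 to 23 it was at 0.318, 291, 12.1, 0.342, 0.165, 21.3, 36.2 and 0.109 FPKM. The value of cell 17 was the highest of any of the 9 genes, in the cell with the fewest genes at 1 FPKM and the largest FPKM sum. The other 10 cells lay between 2.30 and 36.2 FPKM.

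At least 1 of both oxidases was at 1 FPKM in 19 cells (82.6%, exact 95% interval 61.2 to 95.0%). Only Maoa was found in 8 cells, only Maob in 5, both in 6 (5, 7, 10, 11, 13 and 18) and neither in 4 (8, 16, 19 and 20). Their Spearman correlation was -0.42 over 23 cells and -0.29 over JCb5.2 cells. Of the 16 Slc18a2 cells 15 had an oxidase, cell 16 being the exception. Of the 12 Ddc cells 9 had Maoa, and the correlation of Ddc and Maoa was 0.44 over 23 cells and 0.54 over JCb5.2 cells. Aldh2, an aldehyde dehydrogenase of mitochondria that acts after the oxidases, was found in 17 cells. Aldh1a1, the aldehyde dehydrogenase of a class of midbrain dopamine neurons, was listed at 0 in all cells.

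**Figure D4:**
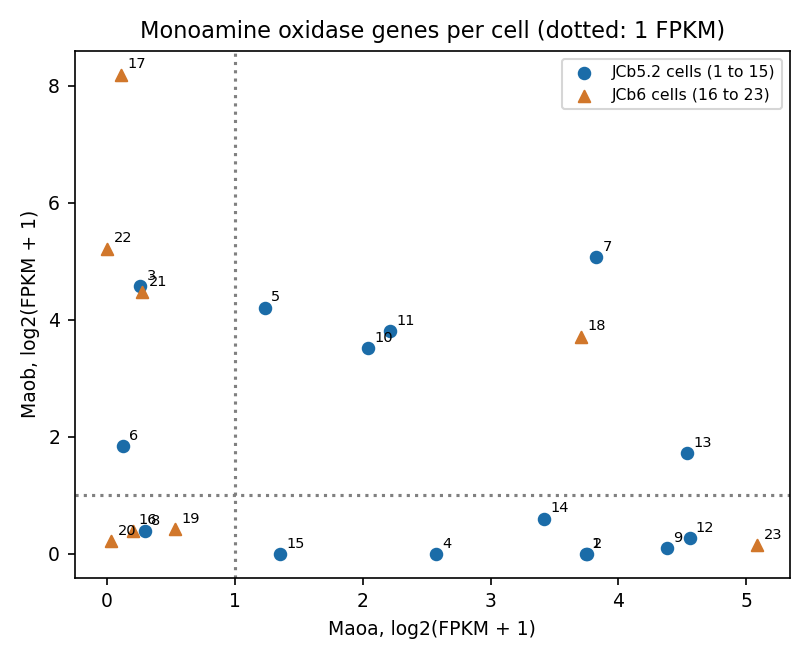
Maob against Maoa level, both as log2(FPKM + 1), per cell with its number; circles are JCb5.2 cells, triangles JCb6 cells, and dotted lines mark 1 FPKM. The 6 cells above both lines are 5, 7, 10, 11, 13 and 18, and 13 cells pass only 1 of the lines.

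Drd2, the inhibitory dopamine receptor (chromosome 9, 49340662 to 49407214, plus strand), reached 1 FPKM in 2 of 23 cells (8.70%, exact 95% interval 1.07 to 28.0%). These were the JCb6 cells 19 (1.60 FPKM) and 23 (1.17 FPKM). Of the other 21 cells, 20 had values above 0, the highest 0.169 FPKM in cell 8, and 1 was listed at 0. Both Drd2 cells had Kiss1 above 500 FPKM and Ddc above 5 FPKM, and cell 23 also had Slc18a2, Maoa, Tph2 and Dbh at 1 FPKM. Drd5, a receptor that stimulates adenylyl cyclase (chromosome 5, 38319509 to 38322310, plus strand), was listed at 0 in all 23 cells (exact 95% interval 0 to 14.8%).

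Of the other dopamine receptors only the one listed as Drd1a, the D1 receptor, was found. It was at 2.61, 11.4 and 4.39 FPKM in cells 5, 9 and 18, and below 1 FPKM in the rest. Drd3 and the trace amine receptor Taar1 were listed at 0 in all cells, and Drd4 was at 0.0803 FPKM in 1 cell. Drd1a or Drd2 was thus at 1 FPKM in 5 cells (5, 9, 18, 19 and 23), and of these cell 5 alone had the full set of Ddc, Slc18a2 and Gch1. Genes that act after the receptors were broader: the G protein subunits Gnas, Gnai1, Gnai2 and Gnao1 were at 1 FPKM in all 23 cells, Gnal in 16 and the adenylyl cyclase Adcy5 in 14. Ppp1r1b, which encodes DARPP-32 of striatal neurons, was listed at 0 in all cells.

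**Figure D5:**
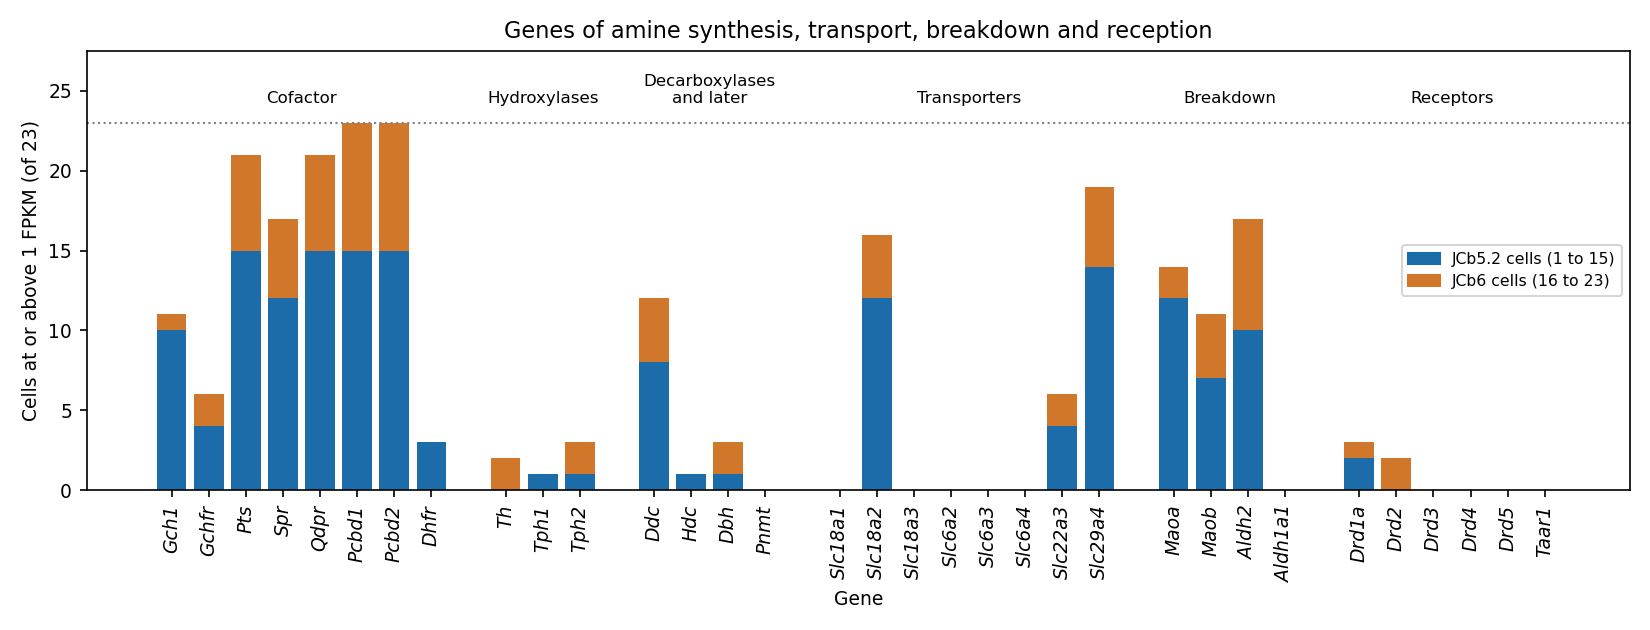
Number of cells at 1 FPKM or more (vertical, of 23) for each gene of amine synthesis, transport, breakdown and reception (horizontal), with JCb5.2 cells at the bottom of each bar and JCb6 cells on top. The hydroxylases and receptors shown reach at most 3 cells, while Pcbd1 and Pcbd2 reach all 23.

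Transcription factors that specify dopamine neurons of the brain were mostly not found. Of 18 such genes 3 reached 1 FPKM in any cell: Nr4a2 in 5, Onecut2 in 5 and Dlx1 in 1. Nr4a2, the nuclear receptor Nurr1 that activates Th in midbrain neurons, was at 1.07, 23.3, 11.0, 6.45 and 4.83 FPKM in the JCb6 cells 18, 19, 21, 22 and 23. No JCb5.2 cell had it above 0.252 FPKM, and only cell 21 of its 5 cells had Th at 1 FPKM. Pitx3, Lmx1a, Lmx1b, En1 and Foxa2 of midbrain dopamine neurons stayed under 1 FPKM in all 23 cells. Of the genes reported beside Th in arcuate dopamine neurons, Gal (galanin) was found in all 23 cells, the prolactin receptor Prlr in 9, Ghrh in 1 (cell 22, 3.67 FPKM) and Nts in 1 (cell 13, 12.1 FPKM).

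The genes most like Gch1, Maoa, Ddc, Slc18a2 and Maob by Spearman correlation over the 23 cells were sought among 9971 genes. Gch1 had the closest partners: Rps6ka4 (0.84), Zfp251 (0.82), Ttc28 (0.82), Hsd3b7 (0.81) and Trpm4 (0.80). For Maoa they were Ppip5k2 (0.78), Adarb1 (0.78), Tarsl2 (0.74), Ttc9b (0.70) and Elp5 (0.70). For Ddc they were F2r (0.74), Isoc1 (0.74), Ints9 (0.72), Tbcel (0.70) and Alkbh8 (0.68). Slc18a2 was nearest to Tpp1 (0.71), Phospho2 (0.70), Pias2 (0.70), Cpeb2 (0.70) and Arid4a (0.69), and Maob to Rpl22l1 (0.73), Nynrin (0.68), Fbxo11 (0.67), Gm15421 (0.67) and Rps21 (0.63). None of these 5 members was among the 5 nearest genes of another. With 5 places among 9971 genes, that does not show that the members were unlike each other. Th, Slc6a3, Drd2 and Drd5 were at 1 FPKM in too few cells to enter the search. With so many genes and 23 cells from 2 mice, these lists describe likeness in this sample only.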

How the data were processed

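GFP-positive neurons were freed from the arcuate nucleus with papain and sorted manually, and polyadenylated RNA was amplified by SmartSeq2, per the labels' protocols. CASAVA 1.8, TopHat, Cufflinks and build mm10 are named in the submitters' processing notes; the sources used here give no other version, annotation or strand setting. Values deposited by the authors are FPKM, in 1 table of genes by cells. It holds amplified reads without molecular identifiers and no counts, so absolute depth is unknown and intervals cover only the number of cells.

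From 23896 lines of the table, 12 leftover spreadsheet lines and 286 identical copies were left out, 27 date-like names were kept apart, and lines of 124 symbols were summed, which gave 23400 genes. Each of the 9 genes had 1 line. A cell was counted at 1 FPKM or more, with exact Clopper-Pearson 95% intervals. An exact 0 is described as listed at 0. Locus strands and types came from GENCODE and promoters from RefSeq. Relative depth came from the ratios between cells of values below 0.5 FPKM at loci of 500 bp or longer, and the script was tested on simulated data. Likeness used genes at 1 FPKM in 5 or more cells with loci of at least 300 bp. List genes were named where they reached 1 FPKM in at least 1 cell, and other members of a list where a statement rests on their being low. Some list genes are not reported here. The members, gene lists and bounds were chosen with earlier results of these data known. Alternatives were thresholds of 0.1, 5 and 10 FPKM and any value above 0, rescaling, a condition of 5% of the highest value in the title set, each title set alone, and sets of cells left out. Cells are not replicates and no p-value was computed. The software was pandas 2.3.3, numpy 2.4.6, scipy 1.17.1 and matplotlib 3.10.9 under Python 3.11.15.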

Additional observations from a re-analysis of the deposited data

How the results depend on the processing

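Shares of cells depended most on the threshold. The share with Ddc, Slc18a2 and Gch1 but neither Th nor Slc6a3 (26.1% at 1 FPKM) was 56.5% with any value above 0, 4.35% at both 5 and 10 FPKM, and 0% in JCb6 cells alone. The share with Ddc and Slc18a2 (43.5%) was 87.0% with any value above 0, 21.7% at 5 FPKM and 4.35% at 10 FPKM. For Th (8.70%) it was 34.8% with any value above 0 and at 0.1 FPKM, and 0% at 10 FPKM, in JCb5.2 cells alone and without cells 17 and 21. For Drd2 or Drd5 (8.70%) it was 95.7% with any value above 0, 30.4% at 0.1 FPKM, and 0% at 5 FPKM, at 10 FPKM and in JCb5.2 cells alone. For Maoa or Maob (82.6%) it was 100% with any value above 0 and at 0.1 FPKM. Slc6a3 reached at most 4.35%. The other 47 values stayed within the exact interval of the value at 1 FPKM. A further condition of 5% of the highest value in the title set left 13.0% of cells with the full set, and Slc18a2 alone in 34.8%. Of the 5 genes most like each member, Pearson's r of log2(FPKM + 1) kept 1 for Ddc, Slc18a2 and Maob, 2 for Gch1 and 3 for Maoa. No paired analysis was possible because the cells form 1 group and no test was made. Depth is unknown in absolute terms, so whether a value under 1 FPKM reflects absence of the transcript was not tested.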
